A study of Mus musculus with 13 samples.

Results

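The glutathione S-transferases described here are 10 genes of mouse liver, namely Gsta1, Gm3776, Gsta3 and Gsta4 of the alpha class, Gstm1, Gstm2 and Gstm3 of the mu class, Gstp1 of the pi class, Gstt1 of the theta class and Gstz1 of the zeta class. They are 10 of the 23019 genes with a row in all 3 deposited count tables and 10 of the 29 genes of the family with a row there. All 10 had enough counts to be tested in every comparison. The genes were chosen from earlier results of these same tables, so their differences between groups are given as a description and support nothing beyond themselves. The other 19 family genes were taken whole, whatever they did.

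Glutathione S-transferases join the thiol of glutathione to electrophilic compounds, which makes drugs, toxins and products of lipid peroxidation more soluble and ready for export by ATP-driven pumps into bile or blood. The hepatocyte is rich in these enzymes. Transcription of several alpha and mu class genes is known to follow Nfe2l2 (NRF2), a transcription factor released by its inhibitor Keap1 under oxidative or electrophilic stress, and also the xenobiotic receptors Nr1i2 (PXR) and Nr1i3 (CAR).

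Liver RNA of 13 C57 mice aged 3 months was sequenced. The 5 mice without bile duct ligation (no BDL) received no treatment, 4 mice had bile duct ligation and a control oligonucleotide (miR-Ctrl BDL), and 4 had ligation and an inhibitor of miR-873-5p (anti-miR-873-5p BDL). Ligation of the bile duct stops the flow of bile and is used as a model of cholestasis and early liver fibrosis. In the study's methods both oligonucleotides were injected into the tail vein at 60 µg per mouse on days 3 and 5 after ligation and livers were taken on day 7, so the comparisons with no BDL hold surgery and injection together. Totals ran from 12185333 to 19689037 counts per mouse. The table of the 2 BDL groups holds 3 mice of each, without miR-Ctrl BDL mouse 3 and anti-miR-873-5p BDL mouse 2. The label under which this table was deposited says that it holds no outliers. The study's text states that any outliers present were filtered, and names none. Both mice left out there remain in the comparisons with no BDL. Mice are numbered within their group, and a number shared by groups marks different animals.

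How alike these genes are limits what a read of 50 bases can tell apart, so the first 50 coding bases of the alpha, mu and pi class members and of their closest copies are shown, from GENCODE M21 transcripts of GRCm38, 5′ to 3′. Capitals mark bases that differ from the first gene of the class at the same position.
Gsta1: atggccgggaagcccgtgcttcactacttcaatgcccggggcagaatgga
Gm3776: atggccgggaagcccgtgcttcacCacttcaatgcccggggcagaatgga
Gm10639: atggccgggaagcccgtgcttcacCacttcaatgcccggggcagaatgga
Gsta2: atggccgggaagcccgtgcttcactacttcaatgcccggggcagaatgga
Gsta3: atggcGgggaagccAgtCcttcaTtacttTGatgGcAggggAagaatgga
Gsta4: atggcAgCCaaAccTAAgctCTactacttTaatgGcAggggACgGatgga
Gstm1: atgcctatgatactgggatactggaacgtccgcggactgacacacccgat
Gstm2: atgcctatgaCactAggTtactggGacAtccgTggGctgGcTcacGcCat
Gstm3: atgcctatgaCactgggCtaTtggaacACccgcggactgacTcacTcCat
Gstp1: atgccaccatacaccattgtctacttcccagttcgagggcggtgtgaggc
Gstp2: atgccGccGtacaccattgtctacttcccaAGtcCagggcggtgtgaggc
Over the whole coding sequence Gm3776 differed from Gsta1 at 2 of 672 bases, Gstp2 from Gstp1 at 12 of 633, and Gstm3 and Gstm2 from Gstm1 at 69 and 92 of 657. Of all 50-base windows of its transcripts, Gsta1 shared 90.5% with some other gene and Gm3776 92.5%, mostly with each other. Gstp1 shared 33.7%, all of it with Gstp2. Gstm3 shared 28.8%, Gstm1 18.9% and Gstm2 5.66%. Gsta4 and Gstt1 shared none, and Gsta3 and Gstz1 less than 1%. Values of Gsta1 and Gm3776 one by one are therefore uncertain, since the rule by which the counting placed shared reads is not given in the sources used here. Gsta1 lies at chr9:78230669-78242683 of GRCm38, Gm3776 next to it at chr9:78257129-78269166 and Gsta4 at chr9:78191966-78209349. Gstm1 (chr3:108012250-108017973), Gstm2 (chr3:107981702-107986420) and Gstm3 (chr3:107963696-107969174) form a cluster, and Gstp1 (chr19:4035411-4037912) lies beside Gstp2. Gsta3 is at chr1:21240565-21265575, Gstt1 at chr10:75783813-75798584 and Gstz1 at chr12:87147161-87164723.

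Levels of single mice are given as normalized counts, that is counts scaled to library size (CPM) after scaling all 13 libraries together with edgeR's TMM method. Per kilobase of transcript, Gstp1 was the most abundant member without BDL, at 2223 ± 814 (SD, n = 5), above every mouse's value for the next gene. Gsta3 followed at 969.5 ± 145 and Gstm1 at 948 ± 138, and their mice overlapped. Gstz1 had 423 ± 53.4 per kilobase, Gstt1 231 ± 71.0, Gstm3 165 ± 22.4, Gstm2 75.4 ± 14.0 and Gsta4 43.8 ± 13.4, and of these neighbours Gstt1 and Gstm3 overlapped, as did Gstm2 and Gsta4. Gm3776 and Gsta1 came last at 10.1 ± 3.15 and 7.63 ± 2.11. With 92.5% and 90.5% of their windows shared, their levels would be too low if the counting left out shared reads. Their place in this order is therefore not settled, and members with fewer shared windows carry the same limit to a lesser degree. In miR-Ctrl BDL the order began with Gstm1 at 3775 ± 2706 (SD, n = 4) per kilobase, Gstm3 at 1915 ± 1683 and Gstp1 at 1781 ± 553, which overlapped. Under anti-miR-873-5p BDL it began with Gstm1 at 2335 ± 1853 (SD, n = 4), Gstp1 at 1554 ± 1019 and Gstm3 at 641 ± 630.4, again overlapping.

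The ligated mice differed widely among themselves, and 2 of them stood apart. Summed over the 10 genes, no BDL mice had 5804, 5634, 5456, 5372 and 6508 normalized counts. The miR-Ctrl BDL mice 1 to 4 had 15934, 7435, 2536 and 17131, so that mouse 3 lay below every mouse without BDL and the others above. The anti-miR-873-5p BDL mice 1 to 4 had 13483, 4219.7, 5086 and 3851, so that mouse 1 lay with the high miR-Ctrl BDL mice and the others below every no BDL mouse on this scale. The 10 genes were also taken as a share of the counts of the genes scaled together, not of the whole library. This share was 0.351% to 0.469% without BDL, and 2.09%, 0.997%, 0.273% and 2.05% in miR-Ctrl BDL mice 1 to 4. It was 1.61%, 0.472%, 0.670% and 0.559% under anti-miR-873-5p BDL mice 1 to 4. On this scale mice 3 and 4 lay above every no BDL mouse, the opposite of their place in normalized counts. Mouse 2 exceeded the highest no BDL mouse only narrowly. Genes outside the set scaled together are not in these shares, so the place of mouse 2 is not settled. Both scales put miR-Ctrl BDL mouse 3 lowest among the ligated mice. The values of each gene without this mouse, and without anti-miR-873-5p BDL mouse 2, which the study's table of the 2 BDL groups also lacks, stand beside the full ones below.

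**Figure D1:**
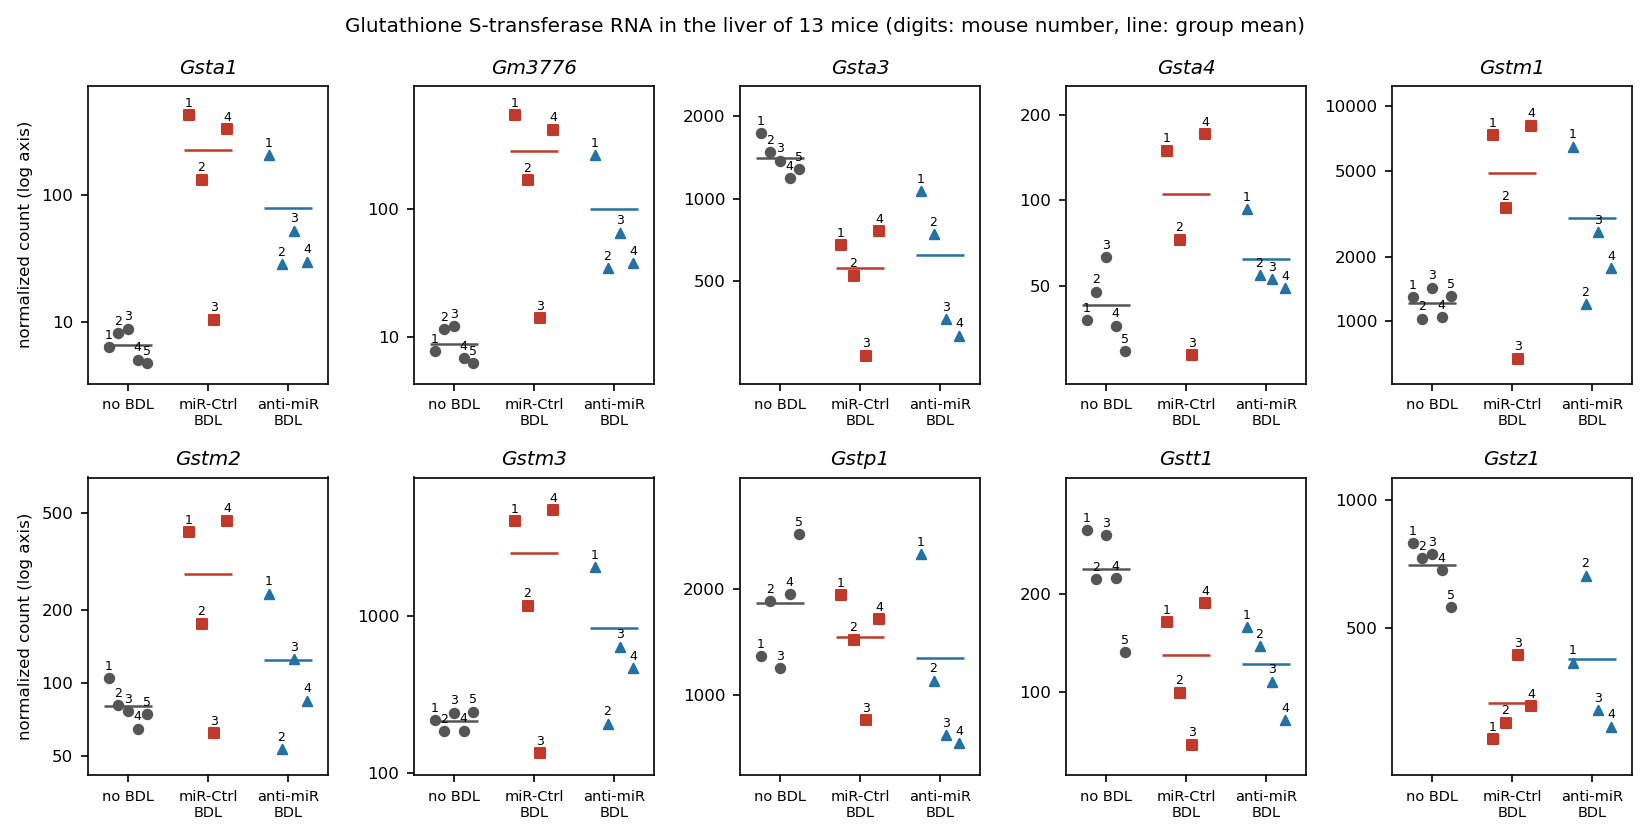
Normalized counts (log axis, 1 panel per gene with its own range) of the 10 glutathione S-transferases in each of 13 mice, with circles for no BDL, squares for miR-Ctrl BDL and triangles for anti-miR-873-5p BDL, digits for the mouse number and lines for group means. In the alpha and mu class panels other than Gsta3, miR-Ctrl BDL mice 1, 2 and 4 lie above all no BDL mice while mouse 3 lies near or below them, and anti-miR-873-5p BDL mouse 1 is the highest of its group.

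Gsta1 and Gm3776, the near-identical alpha class pair with the lowest counts per kilobase in unligated liver, differed most after BDL. Gsta1 had 6.39, 8.19, 8.93, 5.09 and 4.77 normalized counts in the no BDL mice, 429, 133, 10.5 and 331 in miR-Ctrl BDL mice 1 to 4, and 207, 28.8, 52.6 and 30.2 under anti-miR-873-5p BDL mice 1 to 4. Every ligated mouse lay above every unligated one, though mouse 3 of miR-Ctrl BDL only just, at 1.57 times the no BDL mean against 64.3, 19.9 and 49.6 times in the others of its group. The log2 fold change against no BDL was 5.11 (standard error, SE, 0.83, adjusted p = 0.00152) in miR-Ctrl BDL and 3.61 (SE 0.60, adjusted p = 0.00431) under anti-miR-873-5p BDL, by the quasi-likelihood test of edgeR, with p adjusted after Benjamini and Hochberg over all genes tested here and below. Gm3776 followed with log2 fold changes of 5.06 (SE 0.82, adjusted p = 0.00156) and 3.54 (SE 0.61, adjusted p = 0.00493). Its mice had 6.19 to 12.1 normalized counts without BDL, 549, 169, 14.1 and 420.5 in miR-Ctrl BDL, and 266, 34.7, 65.6 and 37.9 under anti-miR-873-5p BDL, in the same order as for Gsta1. Without miR-Ctrl BDL mouse 3 the first change was 5.50 for Gsta1 and 5.44 for Gm3776. Without anti-miR-873-5p BDL mouse 2 the second was 3.88 and 3.82, and without mouse 1, the highest of its group, it fell to 2.503 and 2.40. Both genes stayed past the threshold, an adjusted p of 0.05, in all 9 fits of each comparison that left out 1 mouse. With the counts of Gsta1, Gm3776, Gsta2 and Gm10639 summed as 1 feature, the log2 fold change was 4.49 (adjusted p = 0.00276) in miR-Ctrl BDL and 3.05 (adjusted p = 0.00895) under anti-miR-873-5p BDL. The sum does not depend on how shared reads were divided among these genes. It cannot restore shared reads that the counting may have left out.

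Gstm1, Gstm2 and Gstm3 encode mu class enzymes, which act on epoxides and other electrophiles. Gstm1 had the highest mean per kilobase of the members in both ligated groups, where its mice overlapped those of the next member. Gstm1 had 1298, 1030.0, 1435, 1043 and 1305 normalized counts without BDL, 7325, 3357, 669 and 8115 in miR-Ctrl BDL mice 1 to 4, and 6487, 1198, 2591 and 1762 under anti-miR-873-5p BDL mice 1 to 4. Mouse 3 of miR-Ctrl BDL lay below all unligated mice and mouse 2 of anti-miR-873-5p BDL among them, so the groups overlapped. The log2 fold change was 2.02 (SE 0.55, adjusted p = 0.0181) in miR-Ctrl BDL. It just missed the threshold without miR-Ctrl BDL mouse 1, at 1.75 (adjusted p = 0.0505), or mouse 4, at 1.67 (adjusted p = 0.0537), and was 2.38 (adjusted p = 0.000261) without mouse 3. Under anti-miR-873-5p BDL it was 1.33 (SE 0.44, adjusted p = 0.0548), which passed the threshold without mouse 2, at 1.59 (adjusted p = 0.0127), and stood at 0.62 (adjusted p = 0.115) without mouse 1. Gstm3 spread most of the 3, with 186 to 247 without BDL, 4027, 1167, 134 and 4712 in miR-Ctrl BDL, and 2052, 207, 639 and 466 under anti-miR-873-5p BDL. Its log2 fold change was 3.57 (SE 0.76, adjusted p = 0.00571) in miR-Ctrl BDL and 1.99 (SE 0.54, adjusted p = 0.0276) under anti-miR-873-5p BDL. The second was 1.04 (adjusted p = 0.0386) without mouse 1, 2.31 (adjusted p = 0.00431) without mouse 2, and passed the threshold in 4 of 9 fits that left out 1 mouse, failing without no BDL mouse 1, 2, 3 or 4 or anti-miR-873-5p BDL mouse 3. Without miR-Ctrl BDL mouse 3 the first was 3.95 (adjusted p = 0.00013). Again miR-Ctrl BDL mouse 3 was below all unligated mice, and anti-miR-873-5p BDL mouse 2 among them. Gstm2 had 64.7 to 105 without BDL, 417, 175, 62.3 and 465 in miR-Ctrl BDL, and 233, 53.5, 125 and 84.5 under anti-miR-873-5p BDL. Its log2 fold change was 1.83 (SE 0.47, adjusted p = 0.0139) in miR-Ctrl BDL, or 2.16 (adjusted p = 0.000477) without mouse 3, and 0.66 (SE 0.36, adjusted p = 0.216) under anti-miR-873-5p BDL, where it ran from 0.16 without mouse 1 to 0.90 (adjusted p = 0.0399) without mouse 2.

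Gsta4, an alpha class enzyme known for conjugating 4-hydroxynonenal, a product of lipid peroxidation, moved less. It had 37.8, 47.6, 63.0, 36.1 and 29.3 normalized counts without BDL, 149.6, 72.5, 28.4 and 171 in miR-Ctrl BDL, and 92.7, 54.5, 52.7 and 48.9 under anti-miR-873-5p BDL. The miR-Ctrl BDL log2 fold change of 1.33 (SE 0.45, adjusted p = 0.0413) was lost in 6 of the 9 fits that each left out 1 mouse (no BDL mouse 1, 2, 4 or 5, or miR-Ctrl BDL mouse 1 or 4), down to 1.00 (adjusted p = 0.127) without miR-Ctrl BDL mouse 4, and was 1.64 (adjusted p = 0.00231) without mouse 3. Under anti-miR-873-5p BDL it was 0.57 (SE 0.25, adjusted p = 0.135), with 0.30 (adjusted p = 0.361) without mouse 1 and 0.62 (adjusted p = 0.114) without mouse 2. The groups overlapped in both comparisons.

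Gsta3 was called lower in both ligated groups, Gstz1 in miR-Ctrl BDL and Gstt1 under anti-miR-873-5p BDL. Gsta3, the alpha class enzyme known for conjugating the aflatoxin B1 epoxide in mice, had 1738, 1476, 1377, 1189 and 1283 normalized counts without BDL, 678, 525, 268 and 762 in miR-Ctrl BDL, and 1066, 744, 363 and 317 under anti-miR-873-5p BDL. All ligated mice lay below all unligated ones. The log2 fold change was -1.30 (SE 0.29, adjusted p = 0.00651) and -1.16 (SE 0.35, adjusted p = 0.0416). The first was -1.08 (adjusted p = 0.00139) without miR-Ctrl BDL mouse 3. The second passed only without anti-miR-873-5p BDL mouse 1, at -1.56 (adjusted p = 0.00706), or mouse 2, at -1.26 (adjusted p = 0.0374), among the 9 fits that left out 1 mouse, the others running from -1.22 to -0.95. Gstz1, which also isomerizes maleylacetoacetate in the breakdown of tyrosine, had 792, 728, 743, 682 and 559 without BDL, 274, 299, 431 and 327 in miR-Ctrl BDL, and 414, 663, 321 and 293 under anti-miR-873-5p BDL. The miR-Ctrl BDL mice lay below all unligated mice, with a log2 change of -1.05 (SE 0.16, adjusted p = 0.00126), and mouse 3 was here the nearest of its group to no BDL, the change being -1.20 (adjusted p = 0.000316) without it. Under anti-miR-873-5p BDL mouse 2 lay among the unligated mice, and the change of -0.71 (SE 0.24, adjusted p = 0.0617) reached -1.01 (adjusted p = 0.00379) without that mouse. Gstt1, a theta class enzyme that acts on small halogenated compounds, had 314, 222, 303, 224 and 132 without BDL, 164, 99.5, 68.7 and 187 in miR-Ctrl BDL, and 159, 138, 107 and 81.6 under anti-miR-873-5p BDL. Its log2 fold change was -0.85 (SE 0.33, adjusted p = 0.0694) and -0.96 (SE 0.27, adjusted p = 0.0339), and no BDL mouse 5 lay within the ligated range. The first was -0.65 (adjusted p = 0.100) without miR-Ctrl BDL mouse 3, and passed without mouse 4, at -1.08 (adjusted p = 0.0452), or no BDL mouse 5, at -1.003 (adjusted p = 0.0292). The second passed in 3 of the 9 fits that left out 1 mouse, those without no BDL mouse 5 or anti-miR-873-5p BDL mouse 1 or 2, the last at -1.02 (adjusted p = 0.0321). These 3 changes are relative to the bulk of genes. With libraries scaled by their totals alone all genes had a median log2 fold change of 0.79 in miR-Ctrl BDL and 0.82 under anti-miR-873-5p BDL in place of -0.011 and -0.0070, and Gsta3 stood at -0.47 and -0.38, Gstt1 at -0.049 and -0.17, and Gstz1 at -0.27 and, with a change of sign, 0.074, all below those medians.

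Gstp1, the pi class enzyme and the most abundant member without BDL, showed no difference past the spread between mice. It had 1288, 1844, 1193, 1933 and 2867 normalized counts without BDL, 1922, 1437, 850.0 and 1639 in miR-Ctrl BDL, and 2506, 1099, 768 and 730.3 under anti-miR-873-5p BDL. The log2 fold change was -0.29 (95% interval -0.997 to 0.41, adjusted p = 0.502) and -0.49 (95% interval -1.42 to 0.44, adjusted p = 0.431), intervals that leave room for changes of either sign, and library totals alone turned it to 0.55 and 0.31, still below the median of all genes. Without miR-Ctrl BDL mouse 3 the first was -0.11 (adjusted p = 0.773). Without anti-miR-873-5p BDL mouse 1 the second was -1.06 (adjusted p = 0.0411), and without mouse 2 it was -0.43 (adjusted p = 0.504).

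**Figure D2:**
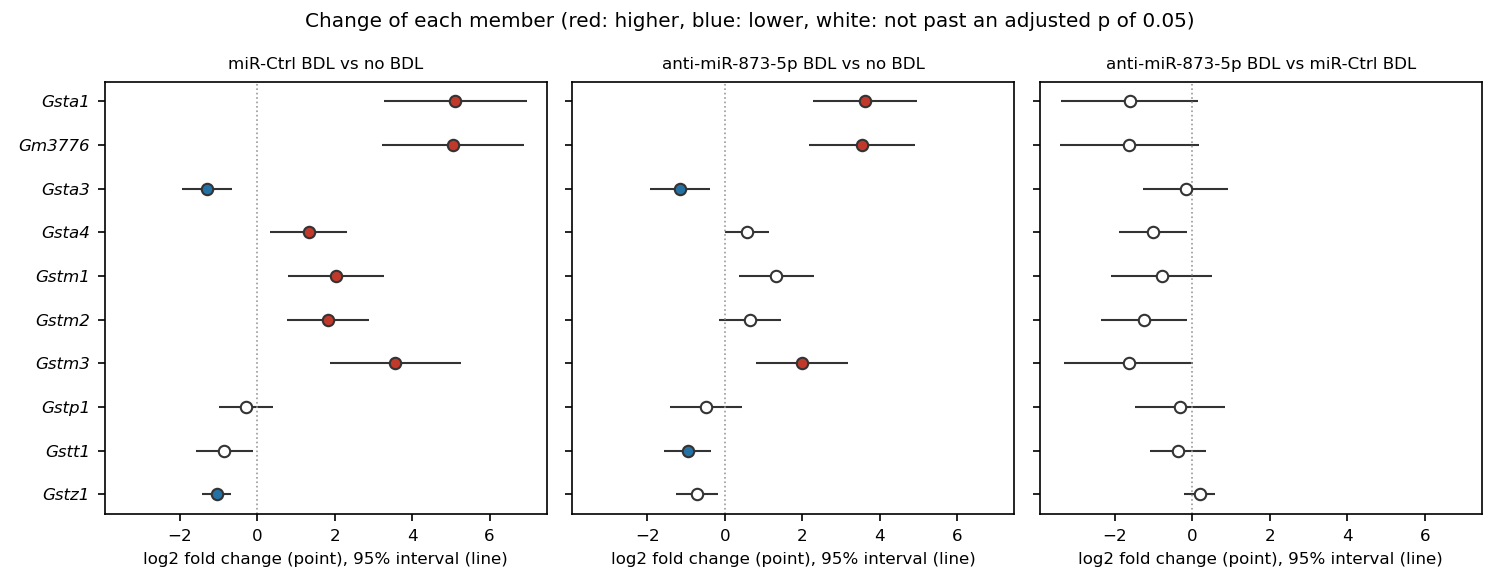
Log2 fold change of each member (points) with its 95% interval (lines) in the 3 comparisons, from edgeR's quasi-likelihood fit to the mice of each table. Red points are higher and blue points lower at an adjusted p of 0.05, and the panel of the 2 BDL groups holds only white points, from -1.65 for Gstm3 to 0.19 for Gstz1.

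In miR-Ctrl BDL compared with no BDL, 6 of the 10 members were called higher (Gsta1, Gm3776, Gsta4, Gstm1, Gstm2 and Gstm3) and 2 lower (Gsta3 and Gstz1), where 19.1% of the 13072 genes tested were called higher and 16.6% lower. Under anti-miR-873-5p BDL compared with no BDL, 3 were called higher (Gsta1, Gm3776 and Gstm3) and 2 lower (Gsta3 and Gstt1), where 13.1% of the 13130 genes tested were called higher and 8.44% lower. As the members were picked with these comparisons known, nothing is read from the counts. The median log2 fold change of the 10 was 1.58 and 0.61, against -0.011 and -0.0070 for all genes. Both comparisons use the same 5 no BDL mice, and their values stand side by side without a test of their likeness. Without miR-Ctrl BDL mouse 3 the first count stayed at 6 higher and 2 lower. Without anti-miR-873-5p BDL mouse 2 the second was 5 higher and 3 lower. It fell to 2 higher and 0 lower without no BDL mouse 1, 2, 3 or 4 or anti-miR-873-5p BDL mouse 3, and to 3 higher and 0 lower without anti-miR-873-5p BDL mouse 4. With library totals alone, the split over all genes became 9360 higher and 275 lower for miR-Ctrl BDL in place of 2491 and 2175, and 10063 higher and 131 lower under anti-miR-873-5p BDL in place of 1715 and 1108, and that of the members 6 higher and 0 lower in both. With totals that left out the 20 most abundant genes, the split over all genes was 5993 to 620 and 5054 to 303.

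The comparison of the 2 BDL groups, 3 mice each, addresses what the inhibitor changed after ligation. None of the 10 members was called, as none of the 13746 genes tested was (0% of them), with a lowest adjusted p of 0.757 over all genes by edgeR and 863 genes at an unadjusted p under 0.05, while DESeq2 called 30 genes, none of them a member. Of the members, 9 had a negative log2 fold change, with a median of -0.91 against 0.0057 for all genes. The members were picked with results of these data known, so nothing is read from this count. An unadjusted p under 0.05, which 863 of the 13746 genes had, was reached by 2 members. These were Gsta4 at -1.02 (95% interval -1.90 to -0.14, adjusted p = 0.757) and Gstm2 at -1.26 (95% interval -2.37 to -0.15, adjusted p = 0.763). Gstm3 stood at -1.65 (95% interval -3.31 to 0.0080, adjusted p = 0.775), Gsta1 at -1.62 (95% interval -3.40 to 0.15, adjusted p = 0.781) and Gm3776 at -1.63 (adjusted p = 0.781). Gstm1 stood at -0.79 (adjusted p = 0.828), Gstt1 at -0.38 (adjusted p = 0.856), Gstp1 at -0.32 (adjusted p = 0.930), Gsta3 at -0.18 (adjusted p = 0.955) and Gstz1 at 0.19 (adjusted p = 0.864). The groups overlapped for all 10, against 4.77% of all genes whose anti-miR-873-5p BDL mice all lay below the miR-Ctrl BDL mice and 6.59% whose mice all lay above. The intervals of Gsta1 and Gstm3 span more than 3 units on the log2 scale, so 3 mice per group do not settle the size of a change. Anti-miR-873-5p BDL mouse 1 lay near the miR-Ctrl BDL mice for most members, and without it the values were -2.86 for Gsta1 (adjusted p = 0.287), -2.59 for Gstm3 (adjusted p = 0.348) and -1.53 for Gstm1 (adjusted p = 0.392). Over the 6 fits that left out 1 mouse Gm3776 ran from -2.89 to -1.197, Gstm2 from -1.76 to -0.98, Gsta4 from -1.38 to -0.79, Gstp1 from -1.16 (without anti-miR-873-5p BDL mouse 1) to -0.026, Gstt1 from -0.68 to -0.18 and Gstz1 from 0.023 to 0.29, and none was called in any. With all 4 mice of each group the same 3 genes stood at -1.50, -1.57 and -0.69, and Gsta3 turned to 0.16.

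Of the other 19 family genes, 16 had enough counts to be tested, and Gstt4, Gsto2 and Mgst2 did not, with at most 6 counts in any mouse. In miR-Ctrl BDL 5 of the 16 were called higher, namely Gsta2, Gm10639, Gstm5, Gstcd and Mgst3, and 3 lower, namely Gsto1, Gstk1 and Mgst1, where 19.1% of all genes tested were called higher and 16.6% lower, so that the count of lower genes is near that of all genes. Gstcd passed in only 2 of the 9 fits that left out 1 mouse (without no BDL mouse 5 or miR-Ctrl BDL mouse 3), and Gsto1 in 5, failing without no BDL mouse 2 or 3 or miR-Ctrl BDL mouse 1 or 2. Under anti-miR-873-5p BDL 5 were called higher (Gsta2, Gm10639, Gstm5, Hpgds and Mgst3) and 3 lower (Gstm7, Gstk1 and Mgst1), where all genes had 13.1% and 8.44%. Of these only Gsta2 and Gm10639 passed in all 9 fits that left out 1 mouse. Gstm5 passed in 8, Gstk1 in 6, Hpgds in 4, Gstm7 and Mgst1 in 3 and Mgst3 in 2, and all 6 failed without anti-miR-873-5p BDL mouse 3. The median log2 fold change of the 16 was 0.32 and -0.067. Gsta2 and Gm10639, which share 49.8% and 49.4% of their windows with other genes, went with their copies Gsta1 and Gm3776, at 3.74 (adjusted p = 0.00572) and 4.19 (adjusted p = 0.00352) in miR-Ctrl BDL. Mgst1, a microsomal transferase of another protein family, had 2930.2 to 3602 normalized counts without BDL and 1454, 1570.1, 1771 and 1585 in miR-Ctrl BDL, a log2 change of -0.99 (adjusted p = 0.00115). Under anti-miR-873-5p BDL it had 2644, 1417, 1409.7 and 1349, with mouse 1 near the unligated mice, and a change of -0.89 (adjusted p = 0.0341), with an adjusted p of up to 0.107 where 1 mouse was left out. Gstk1, the kappa class enzyme of mitochondria and peroxisomes, stood at -0.96 (adjusted p = 0.00172) and -0.73 (adjusted p = 0.0210). With library totals alone the lower calls of Gsto1 in miR-Ctrl BDL and of Gstk1 and Gstm7 under anti-miR-873-5p BDL changed sign, to 0.31, 0.069 and 0.23.

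Within the mu cluster the genes did not move alike. Gstm5 had 6.19 to 9.93 normalized counts without BDL and 12.9 to 13.8 in all 4 miR-Ctrl BDL mice, mouse 3 included, a log2 change of 0.72 (adjusted p = 0.00473). Gstm4 stood at 0.75 (adjusted p = 0.177), Gstm6 at 0.94 (adjusted p = 0.218) and Gstm7 at -0.35 (adjusted p = 0.238) in miR-Ctrl BDL relative to the bulk of genes, the last turning to 0.47 with library totals alone. Gstm6 had 100.5 to 147 without BDL, and 360.4, 128, 33.2 and 442 in miR-Ctrl BDL, with the same mouse 3 below the rest. Without that mouse Gstm4 and Gstm6 passed the threshold, at 1.03 (adjusted p = 0.0119) and 1.298 (adjusted p = 0.00971), the only such fit of 9 for either. In the pi cluster Gstp2 stood at -0.31 (adjusted p = 0.470, and 0.53 with library totals alone) and Gstp3 at 0.016 (adjusted p = 0.969). Gstt2 and Gstt3, neighbours of Gstt1, stood at -0.19 (adjusted p = 0.756, and 0.50 with library totals alone) and -1.001 (adjusted p = 0.0697).

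**Figure D3:**
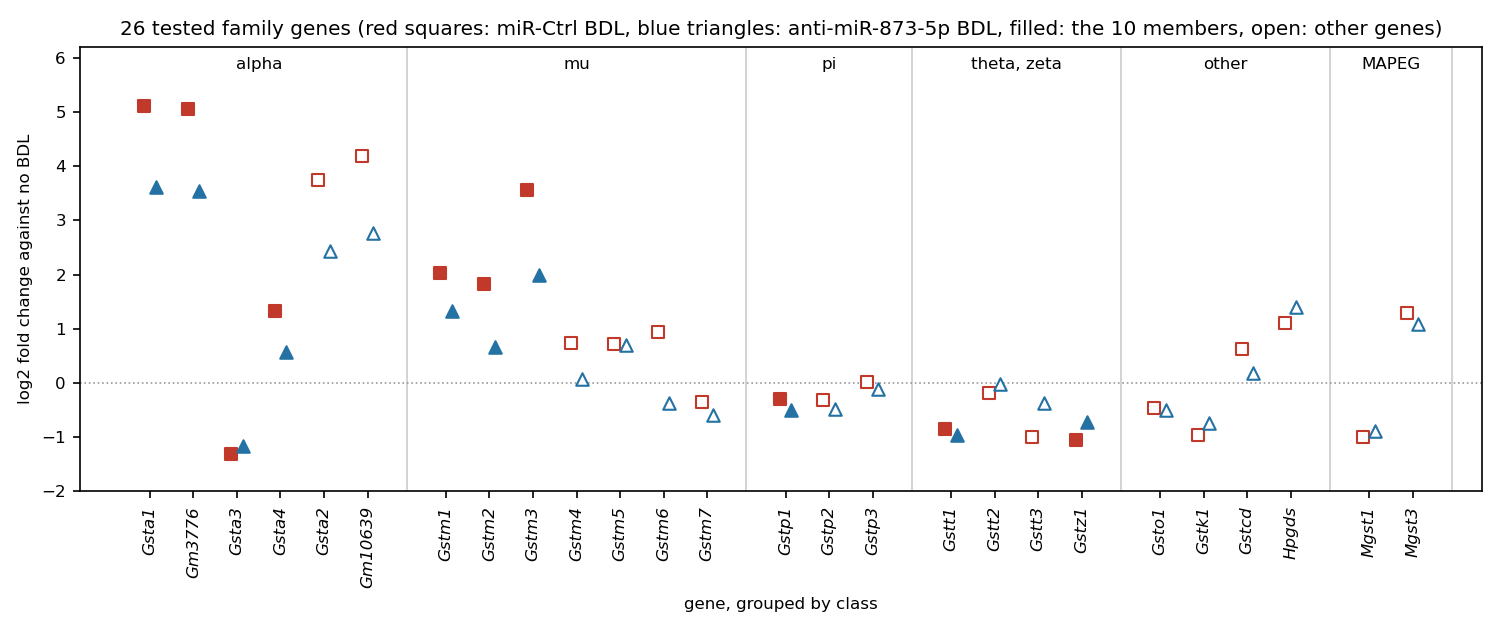
Log2 fold change against no BDL of the 26 tested family genes, grouped by class (MAPEG, the membrane-associated transferases), with red squares for miR-Ctrl BDL and blue triangles for anti-miR-873-5p BDL, filled for the 10 members and open for the other genes, after TMM scaling. The largest values are those of the alpha class copies, from 3.74 to 5.11 in miR-Ctrl BDL, while the other classes than alpha and mu lie between -1.05 and 1.40, where library totals alone change several signs.

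Ratios between related genes within a mouse do not depend on library scaling. Counts of Gsta1 over Gm3776 stayed between 0.711 and 0.832 in all 13 mice, but 90.5% and 92.5% of their windows are shared with other genes, so the placing of reads enters this ratio and nothing is read from it. Gstp2 over Gstp1 stayed between 0.582 and 0.630 while Gstp1 ran from 730.3 to 2867 normalized counts, but 33.7% of the Gstp1 windows and 54.3% of those of Gstp2 are shared, so the same limit holds. Gstm3 over Gstm1 was 0.168 to 0.189 in the 5 no BDL mice, 0.550, 0.348, 0.201 and 0.581 in miR-Ctrl BDL mice 1 to 4, and 0.316, 0.173, 0.247 and 0.264 under anti-miR-873-5p BDL mice 1 to 4. All miR-Ctrl BDL mice lay above the unligated ones in this ratio, mouse 3 included, and 3 of the 4 anti-miR-873-5p BDL mice did. Gstm3 and Gstm1 share 28.8% and 18.9% of their windows with other genes, so the placing of reads may enter this ratio and that of Gstm2 over Gstm1. Gstm2 over Gstm1 was 0.0534 to 0.0806 without BDL, 0.0569, 0.0522, 0.0931 and 0.0573 in miR-Ctrl BDL, and 0.0359 to 0.0484 under anti-miR-873-5p BDL. The last group lay below all mice without BDL.

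**Figure D4:**
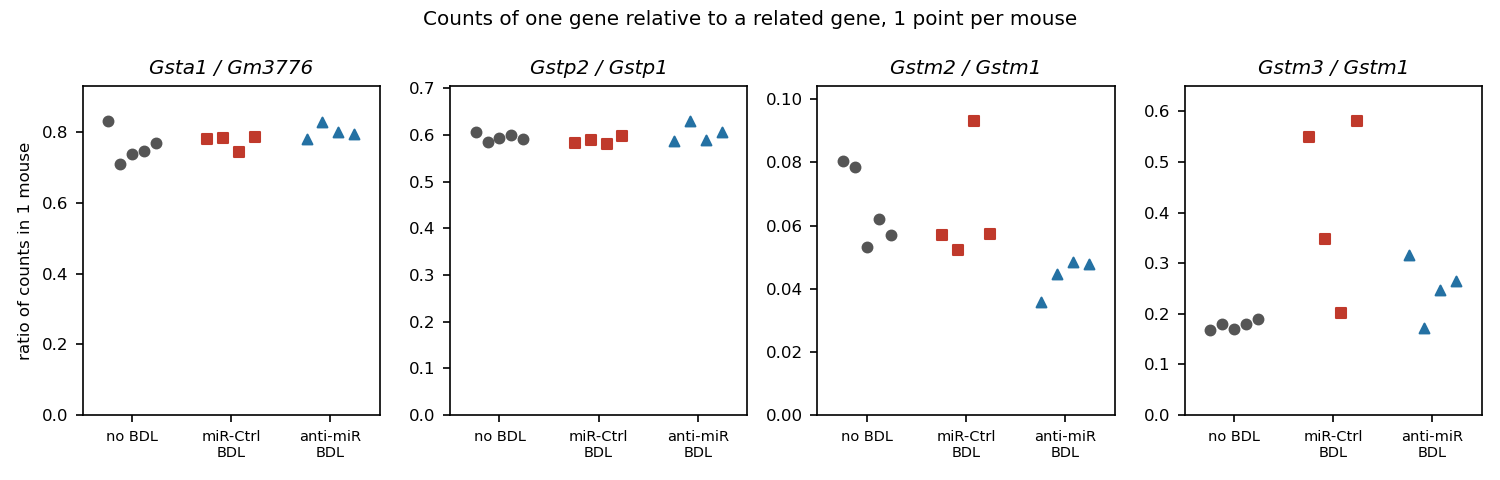
Ratio of the counts of one gene to those of a related gene in each mouse (vertical axes from 0), with circles for no BDL, squares for miR-Ctrl BDL and triangles for anti-miR-873-5p BDL. The ratios of the most similar pairs, Gsta1 to Gm3776 and Gstp2 to Gstp1, are nearly flat over the 13 mice, while Gstm3 to Gstm1 runs from 0.168 to 0.581.

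Glutathione itself is made by Gclc, Gclm and Gss, with cystine brought in by Slc7a11, and its oxidized form is reduced by Gsr. Of 14 tested genes of synthesis and recycling, 6 were called higher in miR-Ctrl BDL (Gclm, Gss, Gsr, Ggt5, Ggt6 and Slc7a11) and 2 lower (Chac2 and Lap3), where 19.1% of all genes tested were called higher and 16.6% lower. Under anti-miR-873-5p BDL 3 were higher (Gss, Ggt5 and Ggt6) and the same 2 lower, where all genes had 13.1% and 8.44%. The median of this list was 0.52 and 0.35, against -0.011 and -0.0070 for all genes, and its count of lower genes in miR-Ctrl BDL was near the share of all genes. Gss had 43.1 to 71.5 normalized counts without BDL, 153, 113, 109 and 113 in miR-Ctrl BDL and 87.6, 120, 104 and 96.2 under anti-miR-873-5p BDL, with no overlap of ligated and unligated mice. Its log2 fold change was 1.16 (adjusted p = 0.000898) and 0.90 (adjusted p = 0.00539). Gsr had 49.4 to 70.2 without BDL and 129, 87.0, 115 and 134 in miR-Ctrl BDL, and Slc7a11 had 9.36 to 18.9 and 37.9, 26.02, 35.3 and 37.6. In both genes miR-Ctrl BDL mouse 3 lay within its group, unlike in the alpha and mu class members. Their log2 fold changes were 1.00 (adjusted p = 0.000950) and 1.29 (adjusted p = 0.00126) in miR-Ctrl BDL and 0.39 (adjusted p = 0.109) and 0.61 (adjusted p = 0.0719) under anti-miR-873-5p BDL. Gclc, the catalytic subunit of the rate-limiting ligase, stood at 0.59 (adjusted p = 0.248) in miR-Ctrl BDL, with 488, 247, 112 and 355 normalized counts and mouse 3 lowest again. Oplah, the 5-oxoprolinase, stood at -0.13 (adjusted p = 0.698), and Lap3, a leucine aminopeptidase, at -0.67 (adjusted p = 0.00585), both positive with library totals alone. Under anti-miR-873-5p BDL the Lap3 call held in 2 of the 9 fits that left out 1 mouse.

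Among 10 tested targets of Nfe2l2 outside the family, 6 were called higher in miR-Ctrl BDL (Nqo1, Hmox1, Txnrd1, Srxn1, Cbr3 and Ephx1) and 4 under anti-miR-873-5p BDL (Nqo1, Hmox1, Srxn1 and Cbr3), none lower, with a median log2 fold change of 1.07 and 0.54, against 19.1% and 13.1% of all genes called higher and medians of -0.011 and -0.0070. Nqo1, a quinone reductase, had 3.81 to 8.24 normalized counts without BDL, 38.0, 16.7, 17.1 and 26.4 in miR-Ctrl BDL and 22.4, 26.5, 11.3 and 12.2 under anti-miR-873-5p BDL. It was raised in miR-Ctrl BDL mouse 3 and anti-miR-873-5p BDL mouse 2 as in the rest, with a log2 change of 2.24 (adjusted p = 0.000620) and 1.79 (adjusted p = 0.00444). Cbr3, a carbonyl reductase, had 0.343 to 0.953 without BDL and 36.2, 8.52, 3.58 and 21.6 in miR-Ctrl BDL, a change of 4.85 (adjusted p = 0.000733), and Srxn1, sulfiredoxin, changed by 2.94 (adjusted p = 0.000411). Ephx1, the microsomal epoxide hydrolase, stood at 0.80 (adjusted p = 0.00517), Ugdh, which makes UDP-glucuronic acid, at 1.13 (adjusted p = 0.0636), and Cyp2a5, a cytochrome P450, at -1.39 (adjusted p = 0.159). In miR-Ctrl BDL mouse 3 and anti-miR-873-5p BDL mouse 2 these targets did not all go with Nqo1. Ugdh had 72.3 and 83.9 there against 124 to 175 without BDL, and Cyp2a5 29.6 and 46.1 against 153 to 1335. Cbr3 had 3.58 and 2.96, lowest of each group but above every unligated mouse, and Ephx1 356 and 333 against 235 to 321.

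Of 14 tested glutathione peroxidases and other enzymes that use glutathione, 4 were higher (Gpx2, Gpx3, Gpx4 and Gpx7) and 5 lower (Glo1, Hagh, Glrx2, Adh5 and Prdx6) in miR-Ctrl BDL, and 4 higher and 4 lower under anti-miR-873-5p BDL, against 19.1% higher and 16.6% lower, and 13.1% and 8.44%, of all genes. The median of the list was -0.27 and -0.25. Gpx2, the gastrointestinal peroxidase, had at most 0.259 normalized counts without BDL, and 19.5, 10.3, 1.83 and 20.9 in miR-Ctrl BDL. Gpx3, the secreted form, stood at 3.14 (adjusted p = 0.000359) and Hagh, of the glyoxalase route, at -1.44 (adjusted p = 0.000483). Gpx1, the most abundant of the list, stood at -0.37 (adjusted p = 0.142), Prdx6, a peroxiredoxin, at -0.48 (adjusted p = 0.0320), and Adh5, which reduces S-nitrosoglutathione, at -0.74 (adjusted p = 0.00138), all 3 positive with library totals alone, and the Prdx6 call held in 4 of the 9 fits that left out 1 mouse. Of 7 pumps and exporters of conjugates, 3 were higher (Abcc1, Abcc4 and Abcc5) and 2 lower (Abcc6 and Abcg2) in miR-Ctrl BDL, and 2 higher and 2 lower under anti-miR-873-5p BDL, beside the same shares of all genes. Their median was 0.60 and 0.43. Abcc2, the pump of the canalicular membrane, stood at 0.17 (adjusted p = 0.704) in miR-Ctrl BDL, Abcc3, of the basolateral membrane, at 0.60 (adjusted p = 0.0541), Abcc1 at 2.10 (adjusted p = 0.00171), Abcc5 at 1.41 (adjusted p = 0.00116), Abcc6 at -1.28 (adjusted p = 0.00480) and Abcg2, a further canalicular exporter, at -0.69 (adjusted p = 0.00445), which was positive with library totals alone and whose call under anti-miR-873-5p BDL held in 1 of 9 fits without 1 mouse.

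Of 13 regulators of the family, Nfe2l2, Ahr and Mafk were called higher and Nr1i3, Rxra, Nr1h4 and Ppara lower in miR-Ctrl BDL, and Mafk alone was called, higher, under anti-miR-873-5p BDL. The counts of higher genes were near the shares of all genes, 19.1% and 13.1%, while 16.6% and 8.44% of all genes were lower, and the median of the list was 0.043 and -0.042. Ppara, the fatty acid receptor, stood at -1.86 (adjusted p = 0.00133) in miR-Ctrl BDL and -0.96 (adjusted p = 0.0576) under anti-miR-873-5p BDL, Nr1h4, the bile acid receptor, at -0.97 (adjusted p = 0.00196) and -0.46 (adjusted p = 0.115), and Rxra, their partner, at -0.59 (adjusted p = 0.00433) and -0.25 (adjusted p = 0.235). Hnf4a, a factor of hepatocyte identity, stood at -0.24 (adjusted p = 0.318) in miR-Ctrl BDL. With library totals alone Rxra and Hnf4a were positive in both comparisons. None of the genes of these 5 lists was called between the 2 BDL groups.

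Cell type markers moved with BDL too, and their counts are to be read against 19.1% of all genes called higher and 16.6% lower in miR-Ctrl BDL, and 13.1% and 8.44% under anti-miR-873-5p BDL. The 7 of 8 hepatocyte markers with a value for all mice, of which Alb is the most abundant, summed to between 100078 and 118652 normalized counts without BDL, to 65383, 45745, 49424 and 77474 in miR-Ctrl BDL, and to 61545, 88443, 55287 and 40516 under anti-miR-873-5p BDL. In miR-Ctrl BDL 4 of 8 were called lower (Apoa1, Ttr, Cps1 and Cyp2e1), under anti-miR-873-5p BDL 2 (Ttr and Cyp2e1), and none higher. The sum does not stand for every marker. Tat, tyrosine aminotransferase, had 778 to 1147 normalized counts without BDL, 3534 in miR-Ctrl BDL mouse 3 and 4835 in anti-miR-873-5p BDL mouse 2, and 424 to 897 in the other ligated mice. Apob, the apolipoprotein of secreted lipoproteins, had 3061 to 3919 without BDL, 3469 and 4013 in the same 2 mice, and 2215 to 2717 in the others. Cyp3a11, a cytochrome P450, went the other way, with 863 to 1366 without BDL, 357 and 239.5 in these 2 mice and 566 to 1915 in the other ligated mice. Alb and Ttr were lowest of the miR-Ctrl BDL group in mouse 3, at 34279 and 1001, while Alb was highest of its group in anti-miR-873-5p BDL mouse 2, at 66323. Apoa1 was highest of its group in both mice, at 6067 and 9544. Tat, Apob and Cyp3a11, and the single-mouse values of Alb, Ttr and Apoa1, were chosen after they were seen. In bulk tissue fewer cells of a type and less RNA per cell cannot be told apart. All 7 cholangiocyte markers were called higher in both groups, and 6 of them, led by Sox9, summed to between 11.3 and 17.1 without BDL, 56.2, 73.2, 84.4 and 46.9 in miR-Ctrl BDL and 45.3, 40.3, 104 and 75.7 under anti-miR-873-5p BDL. Neutrophil markers, led by S100a9, summed to between 5.43 and 15.3 without BDL and to 13.4, 25.5, 229 and 61.5 in miR-Ctrl BDL, highest in the same mouse 3 whose alpha and mu class values were low, and to 19.9, 16.9, 14.3 and 57.5 under anti-miR-873-5p BDL. Of the 3 neutrophil markers tested, S100a8 and S100a9 were called higher in both groups. Macrophage markers, led by Lyz2, were called higher for 4 of 6 genes in miR-Ctrl BDL and 1, near the share of all genes, under anti-miR-873-5p BDL, and stellate cell and fibroblast markers, led by Col3a1, for 4 of 7 in both. Endothelial markers were called for 0 of 5 and, lower, for 1 (Kdr), red cell markers, lower, for Alas2 in both, and no T or natural killer cell marker had enough counts to be tested against no BDL. Endothelial markers, led by Clec4g, summed to 85.8 to 141 without BDL and were lowest in miR-Ctrl BDL mouse 3 at 25.6 and anti-miR-873-5p BDL mouse 2 at 30.8. The same 2 mice were also lowest of their groups in the macrophage sum (366 and 312) and the stellate cell and fibroblast sum (206 and 193). The red cell sum was lowest there too, at 37.7 and 32.2. No marker with a value was at 0 in every mouse, and the part of these cell types in the values of the 10 genes was not tested.

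**Figure D5:**
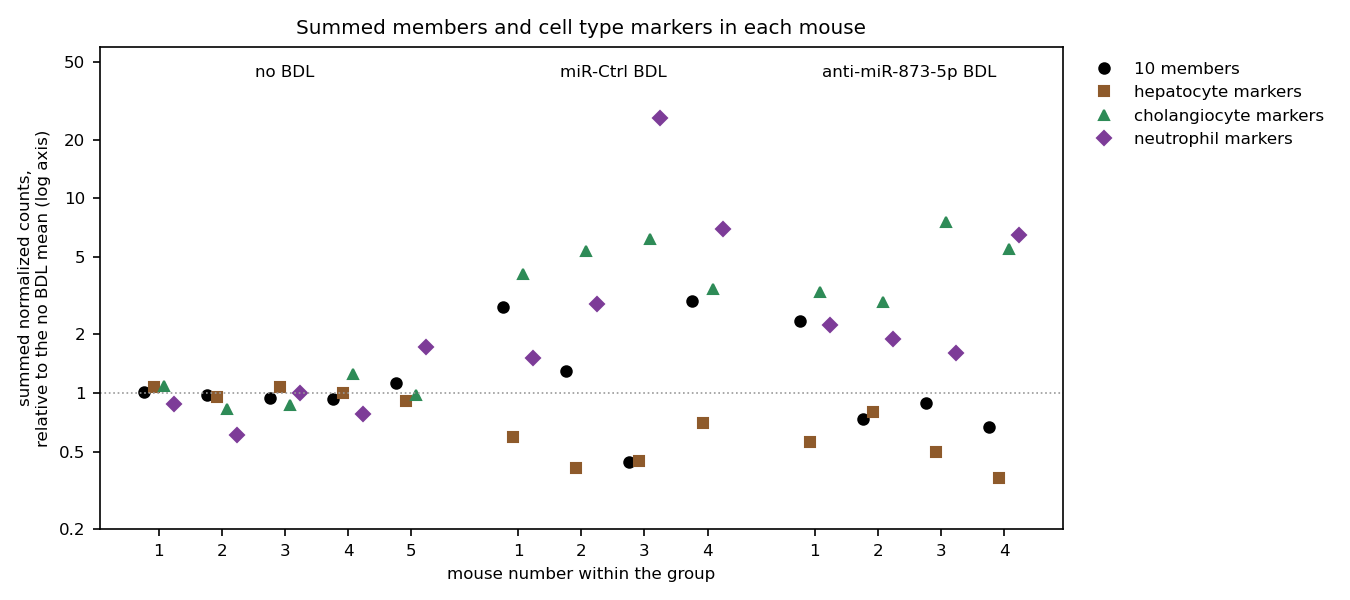
Normalized counts summed over the 10 members and over hepatocyte, cholangiocyte and neutrophil markers in each mouse, relative to the no BDL mean (log axis), with mice side by side within each group. The hepatocyte marker sum, led by Alb, lies below 1 in all 8 ligated mice and the cholangiocyte sum above it, while the members run from below 1 in miR-Ctrl BDL mouse 3 and anti-miR-873-5p BDL mice 2, 3 and 4 to more than the no BDL mean in the rest.

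By the root mean square difference of centred log2 values over the 13 mice, the genes outside the family nearest to Gstm1 among 12077 were Cdca3 (0.413), Ugdh (0.447) and Abcc12 (0.460). Those nearest to Gstp1 were Ugt2b35 (0.277), H2-Q10 (0.346) and Aox1 (0.368). Ugdh had 124 to 175 normalized counts without BDL, 475, 221, 72.3 and 409.9 in miR-Ctrl BDL and 384, 83.9, 169 and 126 under anti-miR-873-5p BDL. The 13 mice share their scaling, and the difference between ligated and unligated mice enters this measure.

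As several members are known targets of Nfe2l2, the core letters of its antioxidant response element, TGACNNNGC, were searched on both strands in the 300 bases around each RefSeq start site (GRCm38.p6). Of 32851 such promoters, 12.4% held the letters. Counted by gene, of the 9 members with an entry (all but Gsta4) 1 did, Gsta3, and of 18 other family genes 3 did, Gstm5, Gstm7 and Mgst1. Some of these genes have more than 1 promoter, and a match in any of them counted. The share of all is by promoter, so these counts are not set against it. The matches are shown with their surroundings, 5′ to 3′ on the gene's strand, with the match in capitals.
Gsta3: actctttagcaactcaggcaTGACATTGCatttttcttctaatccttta
Gstm5: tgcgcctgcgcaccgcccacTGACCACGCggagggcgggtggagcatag
Gstm7: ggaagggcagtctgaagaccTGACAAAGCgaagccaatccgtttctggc
Mgst1: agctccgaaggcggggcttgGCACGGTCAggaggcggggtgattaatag
The Gsta3 window is chr1:21240444-21240492 on the plus strand, with the match 121 bases before the start. The Mgst1 letters lie on the opposite strand, in chr6:138140451-138140499. The promoters of Gsta1 and Gm3776, which hold no such letters in this window, were identical at 284 of 287 aligned bases.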

How the data were processed

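Liver RNA of 13 mice was measured by RNA-seq. The authors prepared unstranded libraries, sequenced single reads of 50 bases and aligned them with TopHat to mm10. They deposited 3 tables of read counts per Entrez gene, not normalized, 1 per comparison. The counting program is not given in the sources used here. The submitters' processing notes also name CASAVA 1.8.2, FastQC, Trim Galore and DESeq2. Columns of other samples numbered 0. Gene symbols came from RefSeq, which named 23666 of 23725 rows of the largest table.

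Each table was fitted on its own with edgeR 4.0.16 (limma 3.58.1, R 4.3.3): filterByExpr, TMM scaling, then the quasi-likelihood test of the 2 groups without covariates, with Benjamini-Hochberg adjustment over all genes tested and a threshold of 0.05. Normalized counts per mouse were CPM values after TMM scaling of all 13 libraries together, for 22247 of the 23019 genes in all 3 tables. Of the genes kept 22246 had identical counts wherever a mouse appeared in more than 1 table, and Gsta3 differed by up to 0.680%. Genes left out, such as Cps1 and Spp1, have no normalized counts per mouse. Levels per kilobase used transcript lengths. Alternatives were library totals, totals without the 20 most abundant genes, DESeq2 1.42.0 and its size factors, no filter, summed copies, the mouse number as a block, all 4 mice of each BDL group, and each mouse left out.

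The 10 members and the gene lists were chosen with earlier results of these data known. Named were the 10 members, the other family genes, the 3 most abundant and the 3 with the lowest adjusted p of each pathway list, and the 3 nearest patterns of the 2 most abundant members. List genes that were called are also given by name. The hepatocyte markers Tat, Apob and Cyp3a11, and the single-mouse values of Alb, Ttr and Apoa1, were singled out after they were seen. Some genes of these lists are not reported here and were left out of the lists' counts. Scripts were tested on simulated data.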

Additional observations from a re-analysis of the deposited data

Results flagged for a closer look

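Anti-miR-873-5p BDL mouse 1 lay far above the other 3 mice of its group for 5 family genes. It had 207.3 normalized counts of Gsta1 against 28.8 to 52.6 in the others, 265.6 of Gm3776 against 34.7 to 65.6, 92.72 of Gsta4 against 48.9 to 54.5, and 151.5 of Gm10639 against 18.7 to 41.3. Gsta1, Gm3776 and Gm10639 share reads and are not independent of one another. The same mouse had 2644 normalized counts of Mgst1 against 1349 to 1417, a gene that was lower after ligation, so that its value lay towards the unligated mice there and away from them in the other 4 genes. Gsto2 reached 0.3573 in miR-Ctrl BDL mouse 2 and Mgst2 0.2948 in anti-miR-873-5p BDL mouse 4, each from no more than 6 counts. Of 82 groups of 4 or 5 mice examined, these 7 (8.54%) held a mouse whose gap to the nearest other passed Dixon's 95% critical value, where chance gives about 1 in 20.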

How the results depend on the processing

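Scaling by library totals alone raised the number of genes past the threshold from 4666 to 9635 in miR-Ctrl BDL and from 2823 to 10194 with anti-miR-873-5p, and totals without the 20 most abundant genes gave 6613 and 5357, since the median of all genes then lies above 0. DESeq2 called 30 genes between the 2 BDL groups in place of 0. Of the members, 9 and 7 were called by DESeq2 in the miR-Ctrl BDL mice and with anti-miR-873-5p in place of 8 and 5, and 6 in both with library totals alone. With 1 mouse left out in turn, members called ran from 6 to 8 and from 2 to 8, and genes past the threshold from 3775 to 5710 and from 1261 to 4317, the lowest without anti-miR-873-5p BDL mouse 3 and the highest without mouse 2. Between the 2 BDL groups they ran from 0 to 1, the 1 without anti-miR-873-5p BDL mouse 3. Members stayed at 0 there in all settings run, of which the block fit described next held too few mice to count.

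Mouse numbers did not pair the animals: deviations of same-numbered mice correlated between -0.070 and 0.034 in miR-Ctrl BDL compared with no BDL, between -0.21 and 0.092 under anti-miR-873-5p BDL, and at 0.38 and -0.051 between the 2 BDL groups. Fits with the mouse number as replicate block, made all the same, could hold only mice whose number occurs in both groups. The members called were 5 (2 higher, 3 lower) and 4, and the genes past the threshold 4053, 2187 and 0. No BDL mouse 5 was left out of these fits. The fit of the 2 BDL groups held only mice 1 and 4 of each, too few for its 0 to show anything.

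Some log2 fold changes changed sign with a setting. With library totals alone, in miR-Ctrl BDL compared with no BDL Gstp1 stood at 0.55, Gstm7 at 0.47, Gstp2 at 0.53, Gstt2 at 0.50, Gsto1 at 0.31, Abcg2 at 0.14, Adh5 at 0.056, Gpx1 at 0.46, Hnf4a at 0.56, Lap3 at 0.15, Oplah at 0.63, Prdx6 at 0.33 and Rxra at 0.20. Under anti-miR-873-5p BDL compared with no BDL Gstp1 stood at 0.31, Gstz1 at 0.074, Gstm6 at 0.43, Gstm7 at 0.23, Gstp2 at 0.32, Gstp3 at 0.70, Gstt2 at 0.66, Gstt3 at 0.29, Gsto1 at 0.29, Gstk1 at 0.069, Abcc2 at 0.74, Abcg2 at 0.075, Adh5 at 0.15, Gclc at 0.73, Gpx1 at 0.57, Hnf4a at 0.69, Lap3 at 0.14, Nr1h4 at 0.36, Prdx6 at 0.39 and Rxra at 0.56. With totals without the 20 most abundant genes, in miR-Ctrl BDL compared with no BDL Gstp1 stood at 0.16, Gstm7 at 0.093, Gstp2 at 0.14, Gstt2 at 0.17, Gpx1 at 0.069, Hnf4a at 0.17 and Oplah at 0.25. Under anti-miR-873-5p BDL compared with no BDL Gstm6 stood at 0.0014, Gstp3 at 0.28, Gstt2 at 0.29, Abcc2 at 0.31, Gclc at 0.28, Gpx1 at 0.13, Hnf4a at 0.25 and Rxra at 0.13. With the replicate block, in miR-Ctrl BDL compared with no BDL Gstp3 stood at -0.14 and Abcc2 at -0.046. Under anti-miR-873-5p BDL compared with no BDL Gstm4 stood at -0.34. With Gstp1, Gstp2 and Gstp3 summed as 1 feature, in miR-Ctrl BDL compared with no BDL the sum stood at -0.30. This value belongs to the sum and not to Gstp3, which stood at 0.016 alone. With all 4 mice of each group, between the 2 BDL groups Gsta3 stood at 0.16. With 1 mouse left out, in miR-Ctrl BDL compared with no BDL Gstp3 ran from -0.24 to 0.17, Gstt2 from -0.41 to 0.26 and Abcc2 from -0.043 to 0.37. Under anti-miR-873-5p BDL compared with no BDL Gstm4 ran from -0.87 to 0.37, Gstp3 from -0.49 to 0.19, Gstt2 from -0.60 to 0.43, Abcc2 from -0.34 to 0.11, Gclc from -0.58 to 0.063, Oplah from -0.10 to 0.092 and Ugdh from -0.096 to 0.75. Between the 2 BDL groups Gsta3 ran from -0.96 to 0.12. The cause of these changes was not tested beyond the construction of each setting.

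Groups of 3 to 5 mice that differed widely limit these values, and depth limits the low genes: the least covered member, Gsta1, had 60 counts in its lowest mouse, and 3 family genes with at most 6 counts in any mouse could not be tested. Reads shared between Gsta1, Gm3776, Gsta2 and Gm10639 were placed by a rule not given in the sources used here. No source ties the mice to cages, litters or sequencing runs, so p-values measure the spread between these mice only.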
